A study of Homo sapiens with 6 samples.

Results

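The lysosomal cathepsins and lysosome membrane proteins described here are 10 genes, CTSC, CTSB, CTSD, CTSL, CTSS, CTSZ, CTSH, CTSA, LAMP1 and LAMP2, of 19777 genes that the array names with a probe set of their own. They were taken by Entrez identifier: every probe set whose platform annotation names exactly 1 gene, that gene being one of the 10, was taken. This gave 26 of 41091 such probe sets. The genes were chosen by the values of the contrast itself, the CKS1B shRNA arrays against the scrambled arrays of these data, so every difference between the groups given for them is a description without a test. Of the 10 genes, 6 had several probe sets, and for these the agreement among probe sets was examined.

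Cathepsins are the proteases of the lysosome, the acidic compartment in which cells break down proteins, lipids and organelles. They are made as inactive precursors, tagged with mannose 6-phosphate, carried to the lysosome and activated there by cleavage. LAMP1 and LAMP2 are heavily glycosylated proteins that line the inner face of the lysosome membrane and shield it from these enzymes. In plasma cells, which secrete large amounts of antibody, the lysosome is also the end point of autophagy of the endoplasmic reticulum. Many lysosomal genes are targets of the transcription factor TFEB, which binds promoter elements built around the letters CACGTG.

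The cells were JJN3, an established human myeloma cell line, and their total RNA was measured on 6 Affymetrix U133 Plus 2.0 arrays. In 3 samples they expressed an shRNA (short hairpin RNA) directed at CKS1B, a small protein that helps SKP2 mark cell cycle inhibitors for degradation, and in 3 samples a scrambled shRNA without a specific target. Both were brought in by viral transduction. The series holds 1 cell line, and the sources used here name neither the hairpin sequence nor the number of clones nor the time after transduction. The arrays of each group are named A, B and C after the first letter of their titles, and the title of scrambled array B also holds the word poly, which no label explains. Nothing in the labels says that arrays of a group are separate cultures, so the spread between them may be technical. Values are MAS5 intensities on a linear scale, given in the order of arrays A, B and C. Differences, CKS1B shRNA minus scrambled shRNA, are between log2(value + 16) values. The pseudocount tends to make them too small for dim probe sets, and its size can change their sign. With pseudocounts of 1, 16 and 64, CTSL 202087_s_at was at 0.11, -0.04 and -0.12. CTSZ 210042_s_at was at -0.17, -0.03 and 0.10. Each has its standard error (SE) from the fit across all 54613 probe sets.

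CKS1B, the targeted gene, read 481, 269 and 828 with the CKS1B shRNA, against 8266, 8441 and 7294 with the scrambled shRNA, a log2 difference of -4.02 (SE 0.44). The groups did not overlap. The exact permutation test, two-sided, had p = 0.1, the smallest value possible for 3 arrays against 3. Array B of the CKS1B shRNA differed from the rest: its correlation with them across probe sets was 0.577 to 0.610, against 0.879 to 0.958 among the other 5. Its actin 3'/5' control ratio, which rises with RNA degradation, was 12.4, against 1.05 to 2.93 on the others. Its scale was also compressed, with a median value of 334 against 117.5 to 201.6. Differences are therefore given with 6 arrays and without this array. The other 5 arrays were not alike either. CKS1B shRNA array C had the actin ratio of 2.93. Scrambled array C had the median of 201.6 and an SD of its log2 values of 1.83, against 2.20 to 2.24 on the remaining arrays. Differences without array B therefore still compare arrays of unlike RNA quality and scale. Myeloma is a tumour of plasma cells, and the 9 listed plasma cell markers summed to 49019, 35301 and 59029 with the CKS1B shRNA and to 47336.5, 44266 and 40412 with the scrambled shRNA. Of the 9, 6 read lower with the CKS1B shRNA with 6 arrays (median log2 difference -0.44), and 6 without array B (median -0.13). JCHAIN, the joining chain of secreted antibody, made up 17619.7, 19879.8 and 37717 of the sums with the CKS1B shRNA and 15689.9, 13131 and 16370.3 with the scrambled shRNA. It had a log2 difference of 0.66 (SE 0.81), and MZB1, a chaperone of plasma cells, one of -1.43 (SE 0.52), and without array B these were 0.78 and -0.83. Macrophages and monocytes are rich in cathepsins, and their 8 markers summed to 655, 2159 and 595 with the CKS1B shRNA and to 732, 911 and 1256 with the scrambled shRNA, over the brightest probe set of each gene. None of the 8 was at 0 on any array, which by itself does not show that their transcripts were present. CD14, which defines monocytes, read 9, 438 and 30.2 with the CKS1B shRNA and 10.9, 8.2 and 73.3 with the scrambled shRNA, below the array median on 5 of 6 arrays. FCER1G was below it on 1 of 6 arrays and ITGAM on 2, and the remaining markers were on 5 or 6. The 6 T and NK cell markers summed to 747, 3873.5 and 1025 with the CKS1B shRNA and to 660.4, 953 and 1461 with the scrambled shRNA, and the 6 stromal markers to 1438, 2113 and 1758 with the CKS1B shRNA and to 1749, 2094 and 2544 with the scrambled shRNA. On CKS1B shRNA array B, the 46323 probe sets with a scrambled level at or under 1000 lay a median of 1.05 log2 units above their scrambled mean. High sums of dim markers on that array cannot be told apart from this rise. The part of these other cell types in the results was not tested.

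Promoter sequence was looked at because CACGTG, the core of the TFEB element, is known from lysosomal genes. RefSeq promoters (GRCh38.p14) were at hand for 7 of the 10 genes, and the 250 bases before the start of each were searched. CACGTG reads the same on both strands. It was present in 3 of these 7 promoters, LAMP1, CTSA and CTSD, and in 6.34% of all 35116 promoters in the table, which were not matched to them in GC content. The LAMP1 window held it 5 times, the only one of all these windows with 5 or more. CTSA held it 2 times and CTSD 1 time, and the windows of CTSC, CTSL, CTSZ and CTSH held no match. The sequences of LAMP1, CTSA and CTSD, which hold the motif, and of CTSC, whose window has no match, are shown 5′ to 3′ on the strand of the gene, with each CACGTG in capitals.
LAMP1, chr13:113296989-113297238, plus strand: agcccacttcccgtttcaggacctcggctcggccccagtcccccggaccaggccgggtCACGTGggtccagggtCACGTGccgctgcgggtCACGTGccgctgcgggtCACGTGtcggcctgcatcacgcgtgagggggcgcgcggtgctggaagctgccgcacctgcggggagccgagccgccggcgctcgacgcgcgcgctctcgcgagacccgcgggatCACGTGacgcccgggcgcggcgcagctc
CTSA, chr20:45891085-45891334, plus strand: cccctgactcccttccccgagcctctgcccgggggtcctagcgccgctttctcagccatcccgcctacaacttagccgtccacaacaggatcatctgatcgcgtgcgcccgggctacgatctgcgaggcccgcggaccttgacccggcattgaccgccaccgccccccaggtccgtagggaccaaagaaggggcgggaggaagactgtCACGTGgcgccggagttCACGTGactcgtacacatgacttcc
CTSD, chr11:1763928-1764177, minus strand: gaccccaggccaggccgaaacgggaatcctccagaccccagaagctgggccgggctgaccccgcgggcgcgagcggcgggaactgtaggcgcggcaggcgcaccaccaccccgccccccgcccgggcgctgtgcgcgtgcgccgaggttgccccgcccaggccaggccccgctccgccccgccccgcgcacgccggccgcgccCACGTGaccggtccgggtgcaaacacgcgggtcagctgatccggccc
CTSC, chr11:88337737-88337986, minus strand: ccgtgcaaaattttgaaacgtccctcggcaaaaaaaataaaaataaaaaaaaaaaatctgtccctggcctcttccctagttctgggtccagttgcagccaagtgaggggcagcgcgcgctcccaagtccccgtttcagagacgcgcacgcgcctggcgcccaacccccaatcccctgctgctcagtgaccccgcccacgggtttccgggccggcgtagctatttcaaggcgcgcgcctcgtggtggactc
A match of letters describes the window and is not a measured binding site. The motif lay 192, 176, 159, 142 and 28 bases before the start in LAMP1, 42 and 25 bases before it in CTSA and 47 bases before it in CTSD.

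CTSC encodes cathepsin C, also called dipeptidyl peptidase 1, which removes dipeptides from the ends of proteins and activates the granule proteases of immune cells. Its 4 probe sets did not agree. Probe set 201487_at read 9398, 588 and 8265 with the CKS1B shRNA, against 3331, 2799 and 2746 with the scrambled shRNA. Arrays A and C of the CKS1B shRNA lay above all scrambled arrays and array B below all of them. The log2 difference was 0.29 (SE 0.88) with 6 arrays and 1.57 (SE 0.24), or 2.98-fold, without array B. It was -0.41 when CKS1B shRNA array A was left out instead, and -0.31 when array C was. Because the RNA came from whole cultures, more transcript per cell and more cells with the transcript cannot be told apart.

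Probe set 225647_s_at of CTSC showed the same order with smaller steps. It read 5997, 1126 and 5100 with the CKS1B shRNA, against 4089.6, 3827 and 2425 with the scrambled shRNA, with a log2 difference of -0.04 (SE 0.62) on 6 arrays and 0.72 (SE 0.27) on the 5 without array B. Probe set 225646_at read 3037, 2363 and 4027 with the CKS1B shRNA, against 2516, 3197 and 2788 with the scrambled shRNA. Here the groups overlapped with and without array B, and the log2 difference was 0.12 (SE 0.40) and 0.31 (SE 0.25) without array B. It was -0.07 without CKS1B shRNA array C. Probe set 231234_at read the other way, at 299.7, 1182 and 304.5 with the CKS1B shRNA, against 318, 341 and 375.5 with the scrambled shRNA. It was highest on array B and, on arrays A and C, below all scrambled arrays, with a log2 difference of 0.46 (SE 0.55) on 6 arrays and -0.18 (SE 0.38) on the 5 without array B. Over the 6 arrays 201487_at and 225647_s_at had a Pearson correlation of 0.96, while each had a negative correlation with 231234_at, -0.90 and -0.93. These correlations describe 6 points that share array B as their extreme.

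**Figure D1:**
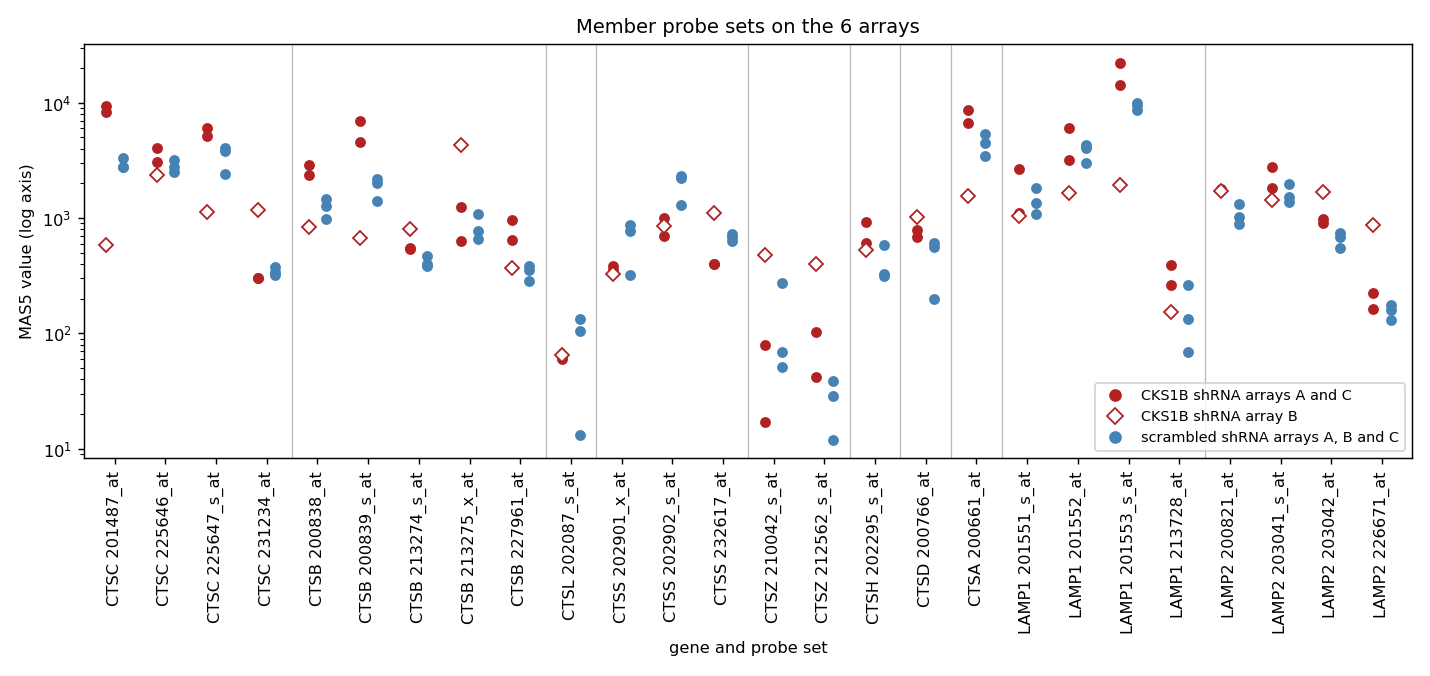
MAS5 values (log axis) of the 26 probe sets of the 10 genes on each array, with the CKS1B shRNA arrays left (array B as an open diamond) and the scrambled shRNA arrays right. For CTSC 201487_at, CKS1B shRNA arrays A and C read 9398 and 8265, all scrambled arrays lie from 2746 to 3331, and array B reads 588.

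CTSB, the cysteine protease cathepsin B, read higher with the CKS1B shRNA in all 5 of its probe sets, both with 6 arrays and without array B. Probe set 200839_s_at read 4579, 672 and 6983 with the CKS1B shRNA, against 2007, 2187 and 1411.5 with the scrambled shRNA, with a log2 difference of 0.60 (SE 0.73) on 6 arrays and 1.61 (SE 0.28), or 3.06-fold, on the 5 without array B. Probe set 200838_at read 2345, 830 and 2875 with the CKS1B shRNA, against 1282, 1454 and 990.5 with the scrambled shRNA, and its log2 difference was 0.53 (SE 0.48) and 1.07 (SE 0.27) without array B. In both, arrays A and C were above every scrambled array and array B was below every one. With CKS1B shRNA array C left out instead, the differences were -0.06 for 200839_s_at and 0.19 for 200838_at. Probe set 227961_at read 649, 369 and 955 with the CKS1B shRNA, against 351, 386 and 287 with the scrambled shRNA, a log2 difference of 0.83 (SE 0.44) and 1.18 (SE 0.35) without array B. For this probe set array B lay within the scrambled range.

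Both remaining CTSB probe sets were highest on array B. Probe set 213274_s_at read 544, 799 and 545 with the CKS1B shRNA, against 383, 467 and 396 with the scrambled shRNA, and was the only CTSB probe set without overlap of the groups on 6 arrays. The CKS1B shRNA arrays lay above the scrambled arrays by 0.56 log2 units (SE 0.38), and by 0.38 (SE 0.33) without array B. Probe set 213275_x_at, of a class whose probes can bind several transcripts, read 627, 4300.4 and 1240.0 with the CKS1B shRNA, against 658, 1089.5 and 772 with the scrambled shRNA. Its difference of 0.86 (SE 0.60) came with the high value of array B and was 0.10 (SE 0.34) without it. The Pearson correlation over the 6 arrays was 0.98 between 200838_at and 200839_s_at, and 5 of the 10 pairs of CTSB probe sets had a negative one. Such pairs numbered 3 of 6 for CTSC, 0 of 3 for CTSS, 0 of 6 for LAMP1 and 1 of 6 for LAMP2, and over all genes 33.9% of 42426 pairs were negative.

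CTSS, cathepsin S, which trims the invariant chain during antigen presentation by MHC class II, was lower with the CKS1B shRNA in all 3 of its probe sets. Probe set 202902_s_at read 992, 855 and 699 with the CKS1B shRNA, against 2233, 2328 and 1307 with the scrambled shRNA. The groups did not overlap, and array B lay between arrays A and C. The log2 difference was -1.16 (SE 0.38) with 6 arrays and -1.17 (SE 0.31), or 2.25-fold lower, without array B. Probe set 202901_x_at read 384, 326 and 354.5 with the CKS1B shRNA, against 779, 866 and 319 with the scrambled shRNA, so that scrambled array C was below all CKS1B shRNA arrays (log2 difference -0.74, SE 0.46, and -0.68 without array B). Probe set 232617_at read 396, 1111 and 401 with the CKS1B shRNA, against 637, 687 and 732 with the scrambled shRNA, with a log2 difference of -0.28 (SE 0.45) and of -0.76 (SE 0.31) without array B. Arrays A and C were below every scrambled array here and array B above every one.

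CTSH, an aminopeptidase of the same cysteine family, was measured by 1 probe set, 202295_s_at. It read 934, 531 and 606 with the CKS1B shRNA, against 587, 329.6 and 313 with the scrambled shRNA, a log2 difference of 0.75 (SE 0.42) and of 0.91 (SE 0.37) without array B. Only array B fell within the scrambled range. CTSL, cathepsin L, an endopeptidase that also cleaves histones, was dim: its only probe set, 202087_s_at, lay below the median of all probe sets on all 6 arrays. It read 62.7, 64.3 and 59.8 with the CKS1B shRNA, against 105, 13.1 and 133 with the scrambled shRNA, and the log2 difference was -0.04 (SE 0.85). The groups overlapped, and the difference was -0.06 (SE 0.80) without array B.

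CTSZ, cathepsin Z (also called X), a carboxypeptidase, had 2 dim probe sets that disagreed. Probe set 210042_s_at read 17.2, 480.4 and 78.7 with the CKS1B shRNA, against 51.4, 68.7 and 274 with the scrambled shRNA, a log2 difference of -0.03 (SE 1.04) and of -1.08 (SE 0.80) without array B. Probe set 212562_s_at read 102.5, 403 and 42.1 with the CKS1B shRNA, against 28.7, 12 and 38.3 with the scrambled shRNA. All CKS1B shRNA arrays lay above all scrambled arrays, with a log2 difference of 1.80 (SE 0.90) and of 1.02 (SE 0.72) without array B. It was below the array median on 5 of 6 arrays, and 210042_s_at on 4 of 6.

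CTSD is an aspartic protease, and CTSA is a serine carboxypeptidase that also protects other lysosomal enzymes in a complex. The CTSD probe set 200766_at read 795, 1014 and 682 with the CKS1B shRNA, against 612, 561 and 198 with the scrambled shRNA. The groups did not overlap, scrambled array C was the lowest of all, and the log2 difference was 0.97 (SE 0.47) and 0.82 (SE 0.43) without array B. Without both array B and scrambled array C, the CTSD difference was 0.32. The CTSA probe set 200661_at read 8569, 1552.5 and 6727 with the CKS1B shRNA, against 4499, 5339 and 3454 with the scrambled shRNA. Arrays A and C exceeded every scrambled array and array B was below every one, so the log2 difference was 0.04 (SE 0.64) with 6 arrays and 0.80 (SE 0.26) without array B. With CKS1B shRNA array A left out it was -0.43, with array C left out -0.25, and with scrambled array C left out -0.13.

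Of the 2 membrane proteins, LAMP2 read higher with the CKS1B shRNA in all 4 of its probe sets. LAMP2 is also the receptor of chaperone-mediated autophagy. Probe set 200821_at read 1788.5, 1731 and 1756 with the CKS1B shRNA, against 1321, 1030.0 and 886 with the scrambled shRNA. The CKS1B shRNA arrays were tight here, with a mean of 1758 ± 29.0 against 1079 ± 222 with the scrambled shRNA (SD, n = 3 each), and array B read like arrays A and C. The groups did not overlap, and the log2 difference was 0.72 (SE 0.35) with 6 arrays and 0.73 (SE 0.27), or 1.65-fold, without array B. Probe set 203042_at read 988, 1698 and 908 with the CKS1B shRNA, against 547, 687 and 737 with the scrambled shRNA, again without overlap (log2 difference 0.81, SE 0.38, and 0.53 without array B).

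The other LAMP2 probe sets overlapped between the groups. Probe set 203041_s_at read 2766, 1444 and 1809 with the CKS1B shRNA, against 1512.5, 1988 and 1377 with the scrambled shRNA (log2 difference 0.27, SE 0.39, and 0.47 without array B). Probe set 226671_at read 226, 872 and 164 with the CKS1B shRNA, against 177, 129.9 and 160.2 with the scrambled shRNA. Its difference of 0.99 (SE 0.65) came with the high value of array B and was 0.29 (SE 0.51) without it.

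LAMP1, the companion of LAMP2, split with 6 arrays and was higher in all 4 probe sets without array B. Probe set 201553_s_at read 14232, 1937 and 22201 with the CKS1B shRNA, against 9995, 9647 and 8635 with the scrambled shRNA. Arrays A and C were above every scrambled array and array B was below every one, with a log2 difference of -0.15 (SE 0.86) and of 0.92 (SE 0.27) without array B. Probe set 201552_at read 6017, 1664 and 3190.0 with the CKS1B shRNA, against 4330.5, 4066 and 3015 with the scrambled shRNA, and 201551_s_at read 2648, 1040.4 and 1095 with the CKS1B shRNA, against 1838, 1352 and 1090.0 with the scrambled shRNA. In both only array A exceeded the scrambled arrays, and the log2 differences were -0.24 (SE 0.52) for 201552_at and 0.05 (SE 0.45) for 201551_s_at, and 0.22 (SE 0.29) and 0.29 (SE 0.35) without array B. Probe set 213728_at read 391.8, 152 and 265 with the CKS1B shRNA, against 261, 132.5 and 68.3 with the scrambled shRNA, a log2 difference of 0.82 (SE 0.65) and of 1.16 (SE 0.56) without array B.

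**Figure D2:**
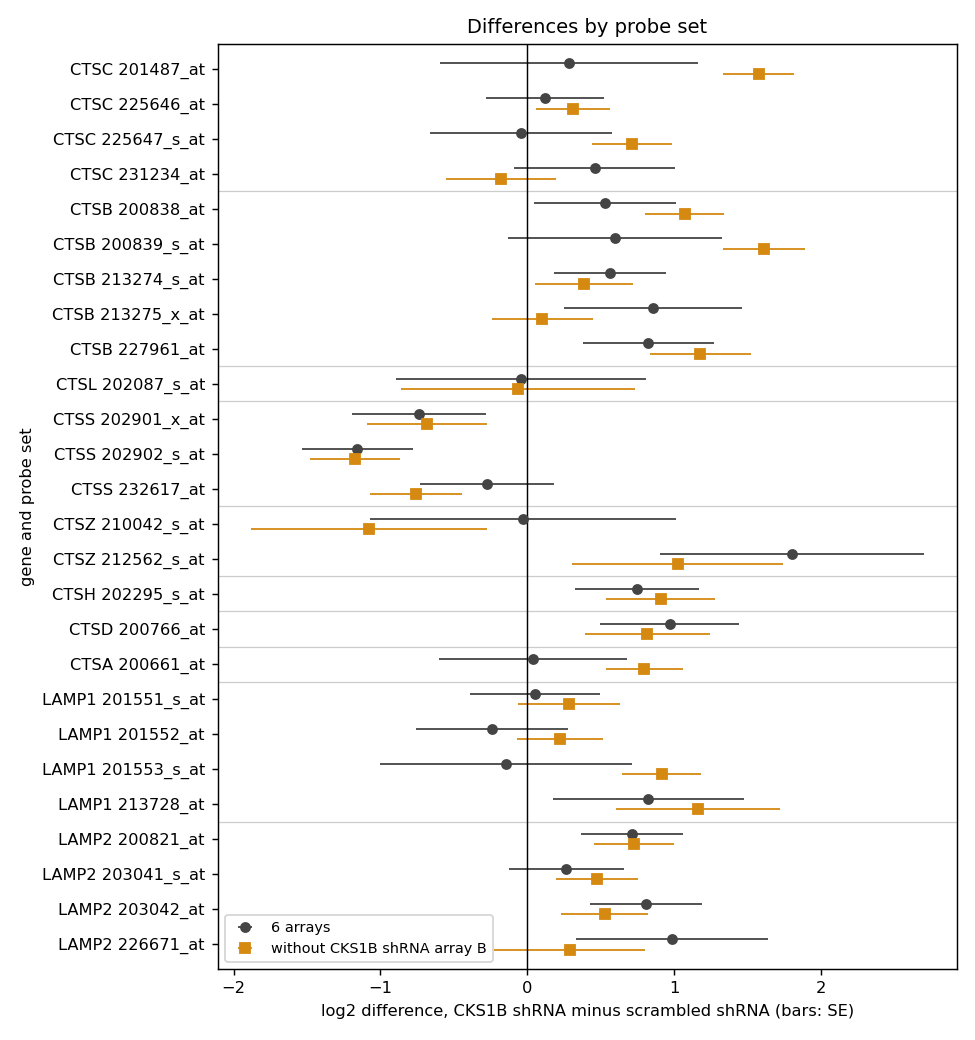
Log2 difference of each probe set, CKS1B shRNA minus scrambled shRNA, with its SE, for 6 arrays (circles) and without CKS1B shRNA array B (squares). The 3 CTSS probe sets lie below 0 and the 5 CTSB and 4 LAMP2 probe sets above 0 in both, while CTSC 201487_at lies at 0.29 and 1.57.

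Counted over all 26 probe sets, 18 were higher and 8 lower with the CKS1B shRNA with 6 arrays, with a median log2 difference of 0.37, where 58.1% of all probe sets were higher and the median was 0.12. Without array B, 20 were higher and 6 lower with a median of 0.50, where 38.8% of all probe sets were higher and the median was -0.15. No share or median of all probe sets here is matched for brightness. Of the 26, 12 had a scrambled level over 1000, against 8290 of all, and 14 did not, against 46323. The median log2 deviation of all from the scrambled mean varied with that level. On CKS1B shRNA array A it was -0.25 in the dimmest bin by level and 0.17 in the brightest. On array C it was -0.10 and 0.15, and -0.11 in the next brightest. A comparison by level is given below. After centring each array on its median, 15 of 26 were higher with 6 arrays. In limma, 0 of 26 probe sets passed an adjusted p of 0.05 with 6 arrays, where 0% of all probe sets did. At an unadjusted p of 0.05, 0 of them were higher and 1, CTSS 202902_s_at, was lower, where 0.927% and 0.84% of all probe sets were, 1.77% in both directions together. Without array B, 1 of 26, CTSC 201487_at, passed the adjusted p as higher and 0 as lower, where 0.0201% of all did, 0.00916% higher and 0.011% lower. At an unadjusted p of 0.05, 9 were higher and 2 lower there, where 2.45% and 3.21% of all were, together 5.66%. Since the genes were chosen with this contrast known, nothing is read from these counts. The groups did not overlap in 6 of the 26 with 6 arrays, 5 higher and 1 lower, where 4.17% of all probe sets were higher without overlap and 3.6% lower. Without array B these numbers were 14 higher and 3 lower, where 7.99% and 13.7% of all probe sets were.

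Agreement among the probe sets of a gene was set beside that over all 10523 genes with several probe sets. With 6 arrays all probe sets had the same sign in 3 of the 6 genes, CTSB, CTSS and LAMP2, and without array B in 4, LAMP1 being the addition. Over all genes with 5 probe sets, as CTSB has, 11% had 1 sign with 6 arrays and 14.7% without array B. For genes with 4 probe sets, as CTSC, LAMP1 and LAMP2 have, the shares were 20.2% and 23.4%. Those for genes with 3, as CTSS has, were 32.8% and 39.9%. CTSC spanned 0.50 log2 units between its lowest and highest probe set with 6 arrays and 1.75 without array B, where the median of genes with 4 probe sets was 1.18 and 0.94. LAMP2 spanned 0.72 and 0.44, and LAMP1 1.07 and 0.94. CTSB spanned 0.33 with 6 arrays and 1.51 without array B, where the median of genes with 5 probe sets was 1.32 and 1.11. The 2 CTSZ probe sets lay 1.83 and 2.10 apart, where the median of genes with 2 was 0.57 and 0.43. CTSS spanned 0.88 and 0.49, where the median of genes with 3 was 0.93 and 0.74.

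How a probe set read on array B went with its brightness. Where each probe set lies in its transcript was not examined, so the part of its distance from the 3' end was not tested. Of the 12 probe sets of the 10 genes whose scrambled level exceeded 1000, 11 were below the scrambled mean on array B, and of the 14 at or under that level 2 were. Over all probe sets these shares were 75.9% and 21.9%. Each CKS1B shRNA array was therefore also compared with the median of the probe sets nearest in scrambled level (a window of 501), a comparison chosen after the data were seen. On this scale 21 of the 26 probe sets lay above the median of their neighbours on array A, 16 on array B and 19 on array C, and 10 did so on all 3 arrays, where 15.4% of all probe sets did. These 10 were the 4 of LAMP2, CTSC 225646_at, CTSB 213274_s_at, CTSZ 212562_s_at and the single probe sets of CTSH, CTSD and CTSA. Relative to neighbours, LAMP2 200821_at read 0.72, 1.07 and 0.82 log2 units higher on arrays A, B and C, and CTSD 1.08, 0.98 and 0.83. The CTSS probe sets 202902_s_at and 202901_x_at were the 2 of the 26 below their neighbours on all 3 arrays, where 15.3% of all probe sets were. CTSC 201487_at read 1.57 and 1.58 above its neighbours on arrays A and C and, as a difference, -1.06 on array B.

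**Figure D3:**
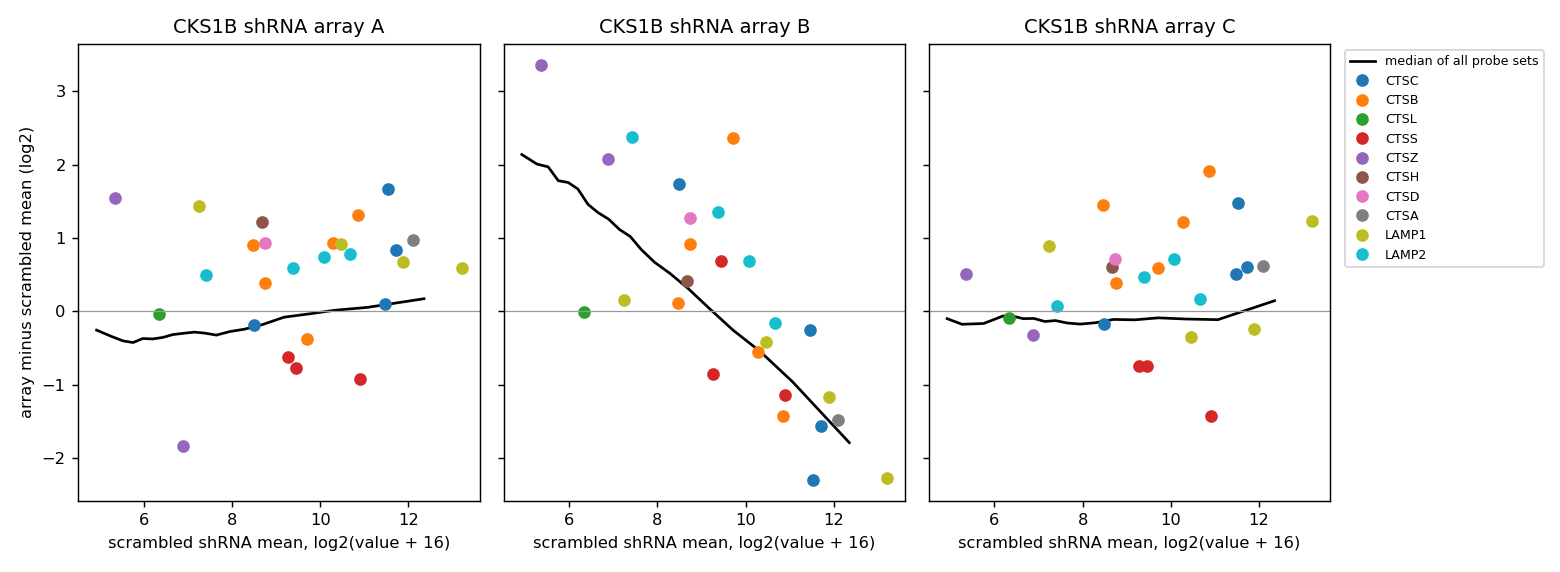
Deviation (log2) of each probe set from its scrambled mean, against that mean, in 1 panel for each CKS1B shRNA array, with the median of all probe sets by level as a line. The line slopes down on array B, and the LAMP2 points lie above it on all 3 arrays while CTSS 202902_s_at lies below it.

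The other genes of the pathway were taken as 8 lists of 112 genes in all, of which 101 had a probe set of their own, and the brightest probe set of each gene was used. Further probe sets of these genes are not described and may differ: GGA2 has 8 in all, ATP6V0E1 has 7 and FLCN has 4. With 6 arrays 0 of the 101 passed an adjusted p of 0.05 in limma, and without array B 0 did, so the values below are descriptions of the named genes. The median log2 difference over the 101 genes was -0.08 with 6 arrays, with 49 higher and 52 lower, against 0.04 over all 19777 genes. Without array B it was 0.10, with 58 higher and 43 lower, against -0.11 over all genes. Groups without overlap were found for 7 genes higher and 6 lower with 6 arrays, as for 4.33% and 4.69% of all genes, and for 19 higher and 11 lower without array B, as for 10.2% and 14.2% of all. The values over all genes are not matched for brightness either.

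Without array B, more genes read higher than lower in the lists of the proton pump, the hydrolases, the transcription factors with mTORC1 docking, and mannose 6-phosphate sorting, and more read lower in the other 4 lists. Of 14 V-ATPase subunits, which acidify the lysosome, 8 were higher with 6 arrays (median 0.08) and 12 without array B (median 0.26). ATP6V0E1, through a probe set whose probes can bind several transcripts, read 9916, 19837 and 8655 with the CKS1B shRNA, against 5285, 5271 and 4787 with the scrambled shRNA (log2 difference 1.22, SE 0.57, and 0.86 without array B). ATP6V1A, of the catalytic head of the pump, had a log2 difference of 0.46 (SE 0.46), and of 0.28 without array B. Of 25 other hydrolases and activators, 12 were higher with 6 arrays (median -0.08) and 17 without array B (median 0.12). PSAP, the precursor of the saposins that help degrade sphingolipids, read 7697, 4966 and 5201 with the CKS1B shRNA, against 3477.5, 3489 and 3725 with the scrambled shRNA, a log2 difference of 0.71 (SE 0.44) and of 0.83 without array B. NPC2, which hands cholesterol out of the lysosome, read 2822, 2104 and 2462 with the CKS1B shRNA, against 1616, 1608 and 1648 with the scrambled shRNA (log2 difference 0.59, SE 0.36, and 0.69 without array B). For both, all CKS1B shRNA arrays, array B included, lay above all scrambled arrays.

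Of 15 transcription factors and mTORC1 docking proteins, 6 were higher with 6 arrays (median -0.17) and 12 without array B (median 0.17). FLCN, a regulator of mTORC1 at the lysosome, read 612, 1081 and 1819 with the CKS1B shRNA, against 572, 545 and 606 with the scrambled shRNA (log2 difference 0.87, SE 0.43, and 0.86 without array B), and RRAGA, a GTPase that docks mTORC1 there, had a log2 difference of -0.78 (SE 0.50) on 6 arrays and -0.25 on the 5 without array B. Of 13 other membrane proteins, 5 were higher (median -0.08), and 6 without array B (median -0.05). LAPTM5, a lysosome membrane protein of blood cells, read 2700.3, 1041 and 2233 with the CKS1B shRNA, against 3718, 3092 and 2836 with the scrambled shRNA (log2 difference -0.79, SE 0.45, and -0.38 without array B). TMEM192, another membrane protein of the lysosome, had a log2 difference of -0.74 (SE 0.40), and of -0.77 without array B. Of 9 genes of mannose 6-phosphate tagging and sorting, 6 were higher (median 0.20) and 5 without array B (median 0.18). GGA2, an adaptor that loads the tagged enzymes at the Golgi, read 1257, 1264.5 and 1243 with the CKS1B shRNA, against 1521, 1648 and 1921 with the scrambled shRNA, a log2 difference of -0.42 (SE 0.34) and of -0.43 without array B.

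Of 10 cystatins and related inhibitors of cysteine cathepsins, 4 were higher (median -0.17) and 3 without array B (median -0.57). CST4 and CST1, both dim secreted cystatins, had log2 differences of -1.44 (SE 0.82) and -0.66 (SE 0.62), and of -1.73 and -0.52 without array B, with no overlap of the groups. Among the 9 other cathepsins and legumain, 4 were higher (median -0.06) and 3 without array B (median -0.19). CTSF read 345, 1299 and 447 with the CKS1B shRNA, against 275, 319.7 and 286 with the scrambled shRNA (log2 difference 0.97, SE 0.52, and 0.40 without array B). Of the 7 granule proteases that cathepsin C activates, 5 were higher (median 0.33) and 1 without array B (median -0.12), and in none did the groups separate. They were dim: all but CTSG were below the array median on 4 to 6 of the 6 arrays. CACGTG was present in the 250 bases before the start in 22 of 114 promoters of listed genes (a gene can have several), a share of 19.3%, where 6.34% of all promoters hold it. These shares are not matched for GC content, and nothing is read from the difference.

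**Figure D4:**
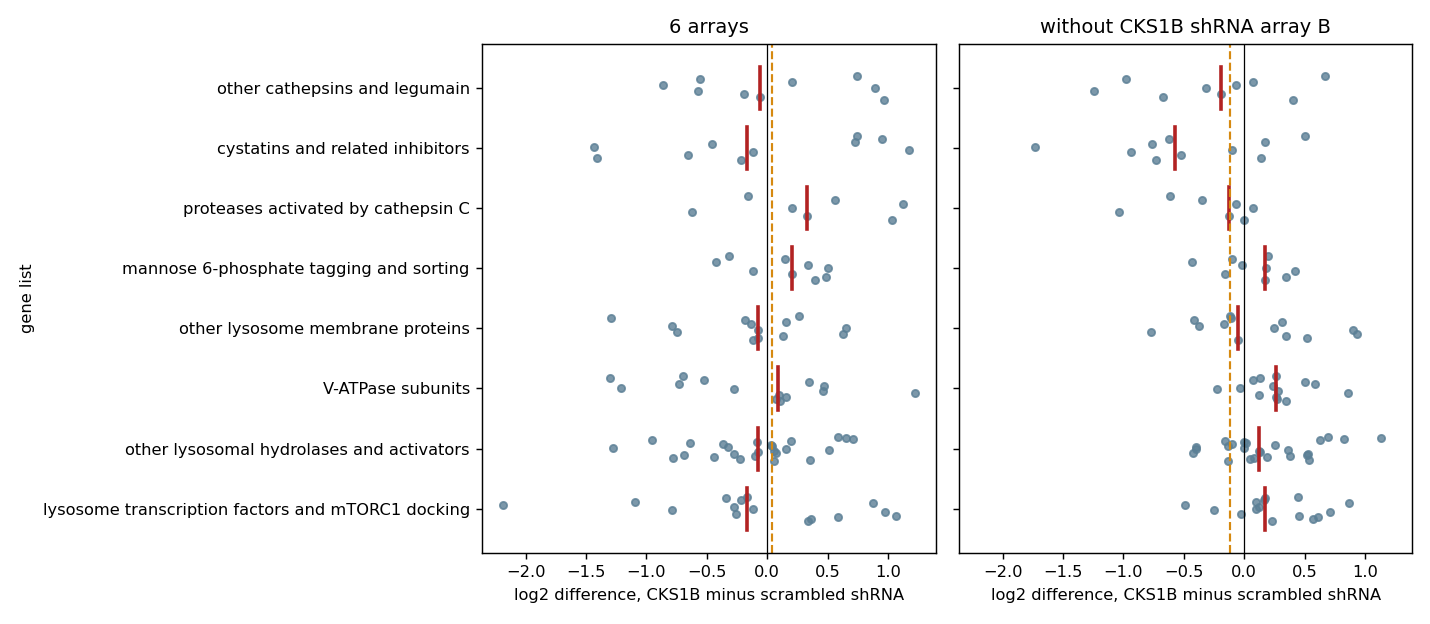
Log2 difference, CKS1B shRNA minus scrambled shRNA, of each gene in the 8 lysosome lists (points), with the list median (solid bar) and the median of all genes (dashed line), for 6 arrays and without CKS1B shRNA array B. Medians of V-ATPase subunits lie at 0.08 and 0.26, and those of cystatins at -0.17 and -0.57.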

How the data were processed

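Expression was measured on 6 single-colour arrays, 3 per group, grouped by their titles. The deposited values are linear intensity, 1 per probe set and array. Per the submitters' processing notes the authors used MAS5, whose version and parameters the sources used here do not name. The 2% trimmed mean was 500.0 to 500.1 on every array, and no other normalization was visible. Such scaling leaves the width of each distribution as it was.

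Of 54675 probe sets, 62 controls were left out. Names came from the platform annotation (41091 probe sets with 1 gene, 1801 with several, 11721 unnamed here) and symbols from RefSeq. Values were turned into log2(value + 16), and all 54613 probe sets, unfiltered, were fitted with limma 3.58.1 in R 4.3.3 (eBayes with trend, Benjamini-Hochberg adjustment over all). The fit was tried on simulated data with independent noise, of equal spread for all probe sets of an array. That noise does not copy the slope of array B with level, and only estimates without array B were held to a limit. The members and lists were chosen with earlier results of these data known. From each list, genes past the threshold were to be named, or else those of highest and lowest difference among genes whose groups do not overlap. The alternatives were other pseudocounts, a filter, quantile normalization, centring, the letter as a block, no trend, array weights, subsets of probe sets, and leaving out arrays. The number of arrays limits the precision. The correlation of the deviations of same-lettered arrays from their group means was 0.35 for A, -0.16 for B and -0.15 for C. These values cannot show whether the letters pair the arrays, since the CKS1B shRNA means they deviate from include the outlying array B. The titles number same-lettered arrays consecutively, but no label calls them pairs. The main fit took the arrays as unpaired, with the letter as a block among the alternatives. Figures used matplotlib 3.10.9.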

Additional observations from a re-analysis of the deposited data

How the results depend on the processing

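Leaving out 1 array moved several of the 26 probe sets widely: without CKS1B shRNA array B, CTSC 201487_at was at 1.57 in place of 0.29, LAMP1 201553_s_at at 0.92 in place of -0.15 and CTSA at 0.80 in place of 0.04. The SD between replicates includes that array and is no measure of stability here. The 3 CTSS probe sets were negative in all settings that fitted them, while CTSB 200839_s_at was positive in 21 of 22, CTSC 201487_at in 19 of 22 and CTSC 225647_s_at in 10 of 22. These counts hold repeats and do not measure stability. The filter, the subsets of probe sets, the block with 6 arrays and the fit without trend leave each difference at its main value. The block without array B repeats the differences without both arrays of letter B. The count of 26 probe sets higher with the CKS1B shRNA was 11 of 13 when those with a suffix for shared sequence were left out, and 5 of 10 with the brightest probe set per gene. Over all probe sets, 39 passed as higher and 47 as lower with array weights, 11 and 5 without both arrays of letter B, and 1 and 1 with quantile normalization without array B. Leaving out each array in turn gave 0 to 5 higher and 0 to 6 lower, and 0 to 1 of the 26. The 1 among the 26 differed between settings: CTSS 202902_s_at with array weights, CTSC 201487_at without array B and CTSB 200839_s_at without both arrays of letter B. With quantile normalization without array B, 0 of the 26 passed. Alternatives chosen after the data were seen, all without array B, gave 5 higher and 6 lower with a pseudocount of 1 (1 of the 26, CTSC 201487_at), 4 and 6 with a pseudocount of 64 (0 of the 26), and 0 and 0 without scrambled array C. With the letter as a replicate block, 0 probe sets passed with 6 arrays. Without array B, 249 passed as higher and 146 as lower, of 54613 fitted. The 4 of them among the 26 were CTSC 201487_at, CTSB 200838_at and 200839_s_at as higher and CTSS 202902_s_at as lower. Scrambled array B is alone in its block there. The fit thus rests on arrays A and C of each group, which leaves little to estimate the spread from. The cause of the change in these counts was not tested. Probe sets near background, such as those of CTSL and CTSZ, limit what these arrays show.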
